A study of Rorippa islandica and Rorippa pyrenaica with 24 samples.

Results

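The difference in transcript levels between submerged leaves of *Rorippa islandica* and submerged leaves of *Rorippa stylosa* was measured by RNA-seq in 12 of the 24 libraries of the study. These were all libraries labelled as submerged, 6 of each species, of which 3 were harvested after 48 h and 3 after 24 h under water. They were compared as *R. islandica* minus *R. stylosa*, with the harvest as a factor, and the 12 libraries of plants kept in empty boxes (air) were used only where the difference under water was set against that in air. No allele or agent beside the water is named for any group. All plants were grown in pots for 3 to 4 weeks and then stood in transparent boxes, which held tap water for the submerged group, and young healthy leaves were taken. *R. islandica* came from seed, whereas *R. stylosa* was propagated vegetatively and independently for each replicate, so mode of propagation and species cannot be told apart. The labels do not say whether each library came from a separate plant, and p-values therefore measure the spread between these libraries only.

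Both species belong to the Brassicaceae. Water slows the exchange of oxygen and carbon dioxide, traps the gaseous hormone ethylene and dims the light that reaches leaves. Submerged plants change the transcript levels of many genes, among them genes of sugar starvation and ethylene signalling. The study regards *R. islandica* as tolerant and *R. stylosa* as sensitive to submergence, and the comparison under water asks which transcripts differ between them while both are under stress.

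Reads from either species were matched by the authors to *R. islandica* transcripts, and no sequence of *R. stylosa* itself entered the counts. A lower count in *R. stylosa* can therefore come from less RNA or from reads that no longer match an *R. islandica* transcript, and these cannot be told apart in the files. In whole leaves, fewer cells of a type and less RNA per cell cannot be told apart either. The tables give gene identifiers, coding lengths and orthogroups (sets of genes descended from 1 ancestral gene) but pair no identifier with a gene name, so leaf markers and pathways could not be checked and genes were grouped by what the tables hold. Between 26787859 and 44444897 counts were assigned per *R. islandica* library (median 36557567), against 24127576 to 35953621 per *R. stylosa* library (median 26470181). Counting error is thus small for all but the rarest transcripts.

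Species separated the submerged libraries almost completely. On the first principal component of the 500 most variable genes, which held 97.8% of the variance, the *R. islandica* libraries lay between 37.6 and 39.9 and the *R. stylosa* libraries between -39.3 and -38.3. The second component held 0.870% and separated the harvests of *R. islandica*, with values of 3.45 to 6.03 at 48 h and -6.00 to -3.92 at 24 h. On this component the *R. stylosa* libraries lay closer together, at -0.574 to 2.39 at 48 h and -1.72 to -0.835 at 24 h, also without overlap. Their harvests lay further apart on the third component (0.410%), at -4.34 to -1.89 at 48 h and 1.69 to 4.00 at 24 h. The typical spread between replicates was small beside the gap between species: the median SD of log2 CPM (CPM, the count as a share of the library's total scaled by TMM normalization) among 3 replicates was 0.132 to 0.168 in the 4 groups. The 500 genes were chosen by their variance over these same libraries. With all tested genes, or with log2 CPM, the first component held 89.8% to 99.3% of the variance.

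Under water, 4182 genes were higher and 3917 were lower in *R. islandica* than in *R. stylosa*, of 21422 genes tested (edgeR's quasi-likelihood test against a log2 fold change of 1, Benjamini-Hochberg adjusted p under 0.05). These are 19.5% and 18.3% of the tested genes, and 37.8% together, which is the background for the groups of genes described further on. Against no change, 8995 genes were higher and 8458 lower (42.0% and 39.5%, or 81.5% together). The median log2 fold change of all tested genes was 0.03, near the 0 at which the normalization centres most genes, and the quartiles were -0.83 and 0.88. The median absolute difference of 0.85 corresponds to a change smaller than the threshold.

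Among the called genes the differences were large. The median log2 fold change was 3.14 in the genes called higher in *R. islandica* and -2.67 in those called lower. A log2 fold change over 5 was found for 1505 genes, and 988 genes were below -5. The tested genes included 932 counted in *R. islandica* only and 437 counted in *R. stylosa* only, whose fitted fold change depends on a prior count and is no measure of size. Of the called genes, 2588 higher and 2731 lower ones had at least 1 count in all 12 libraries, and with a stricter minimum of 10 counts in every library 1873 genes were higher and 2017 lower.

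**Figure D1:**
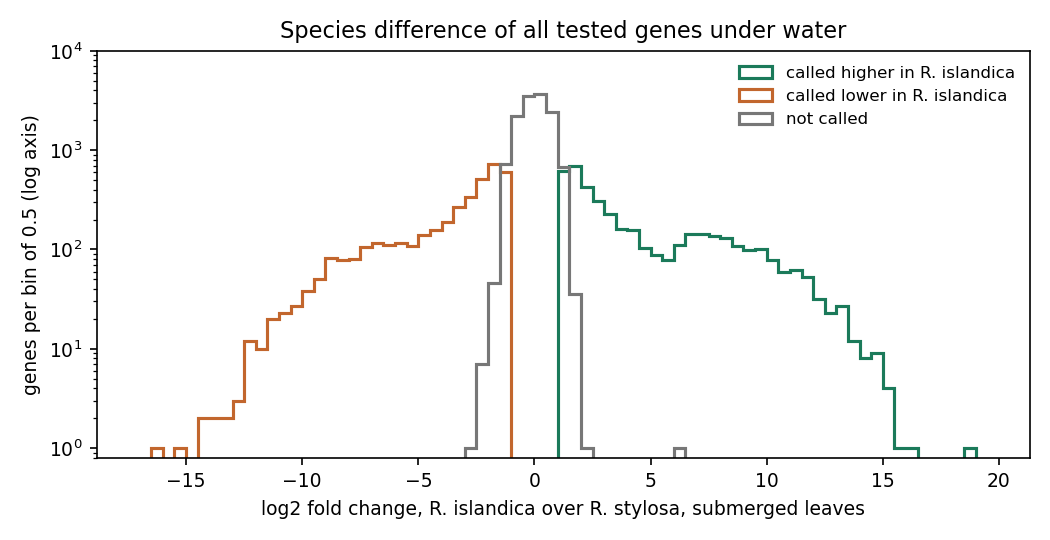
Number of genes (log axis, bins of 0.5) by log2 fold change of R. islandica over R. stylosa under water, for the 4182 genes called higher, the 3917 called lower and the 13323 not called. Nearly all uncalled genes lie around 0, and the genes called higher have a shoulder beyond a log2 fold change of 5, where 1505 of them are found.

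The called genes carried a modest part of the counts. The genes called higher took 19.0% ± 0.691 of all counts in *R. islandica* and 4.58% ± 0.189 in *R. stylosa* (SD, n = 6 each). The genes called lower took 3.16% ± 0.0981 in *R. islandica* and 13.6% ± 0.250 in *R. stylosa*. The remaining 13323 tested genes held 77.8% ± 0.611 of the counts in *R. islandica* and 81.8% ± 0.159 in *R. stylosa*. Most counts in either species thus fell on genes without a called difference. Since the same libraries chose these genes, the shares are a description only.

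Of the genes called higher at both harvests as well, with counts in all 12 libraries and no second gene in their orthogroup (1333 genes), Roisl.0006s0196 had the largest difference. This gene has a coding length of 225 bases. It stood at 298, 260 and 263 CPM in *R. islandica* at 48 h, against 0.0344, 0.0833 and 0.0629 CPM in *R. stylosa*. At 24 h it stood at 334, 387 and 413 CPM in *R. islandica*, against 0.0399, 0.162 and 0.0396 CPM in *R. stylosa*. Every *R. islandica* library was thus far above every *R. stylosa* library, and the 6 *R. stylosa* libraries together held 13 counts, against 68929 in *R. islandica*. The log2 fold change was 12.01 (SE 0.17, edgeR adjusted p = 1.51e-14).

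Roisl.0037s0019, with 1041 coding bases, was the gene with the highest mean level among the same genes. It reached 4289, 4301 and 3948 CPM in *R. islandica* at 48 h, against 456, 555 and 436 CPM in *R. stylosa*. At 24 h it reached 3379, 4091 and 4149 CPM in *R. islandica*, against 524, 532 and 520 CPM in *R. stylosa*. The species did not overlap, and the *R. stylosa* libraries at 24 h lay close together. The log2 fold change was 3.00 (SE 0.10, edgeR adjusted p = 9.51e-11), or 7.99-fold.

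Among the 1676 genes lower in *R. islandica* by the same rule, Roisl.0011s0234 had the largest difference. It has 504 coding bases and an orthogroup that the tables do not mark as universal. It stood at 0.188, 0.322 and 0.285 CPM in *R. islandica* at 48 h, against 108, 119 and 101 CPM in *R. stylosa*. At 24 h it stood at 0.312, 0.218 and 0.175 CPM in *R. islandica*, against 85.3, 107 and 108 CPM in *R. stylosa*. The gene was thus almost silent in all 6 *R. islandica* libraries, although the reads were matched to the *R. islandica* transcript, and the log2 fold change was -8.67 (SE 0.13, edgeR adjusted p = 2.27e-14).

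Roisl.0016s0066, with 1005 coding bases, was the most abundant gene among those lower in *R. islandica*. It stood at 396, 295 and 406 CPM in *R. islandica* at 48 h, against 5235, 7808 and 4741 CPM in *R. stylosa*. At 24 h it stood at 1201, 626 and 766 CPM in *R. islandica*, against 6260, 4908 and 7615 CPM in *R. stylosa*. The highest *R. islandica* library remained below the lowest *R. stylosa* library, with a log2 fold change of -3.44 (SE 0.27, edgeR adjusted p = 4.15e-07), and all *R. islandica* libraries at 48 h lay below those at 24 h.

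**Figure D2:**
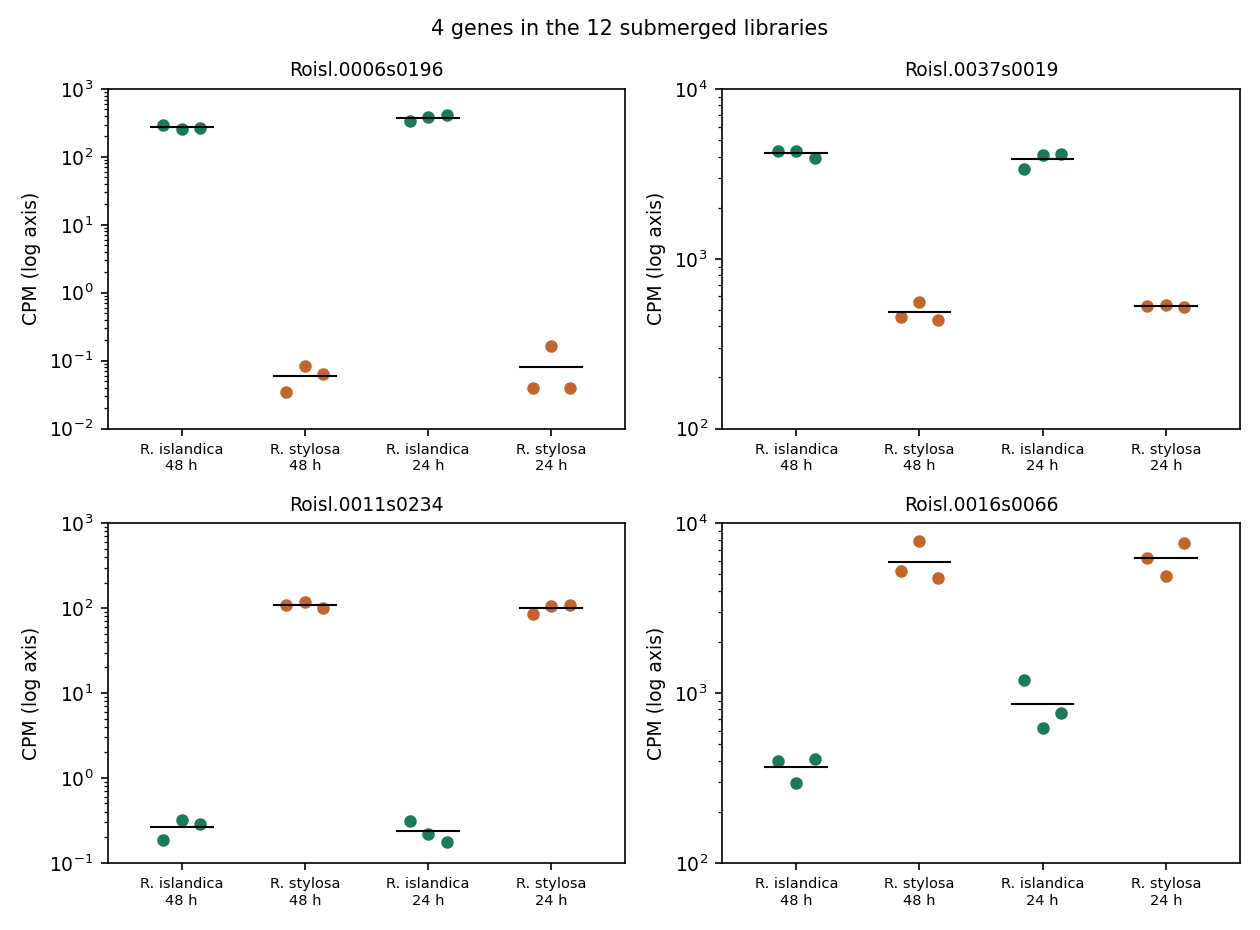
CPM (log axis) of 4 genes in the 12 submerged libraries, with R. islandica in green and R. stylosa in orange at 48 h and at 24 h; each point is a library and each line the mean of 3. In each of the 4 genes the 2 species do not overlap, and Roisl.0006s0196 and Roisl.0011s0234 are near 0 in R. stylosa and in R. islandica, each in its own direction.

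The called share was higher the more genes an orthogroup held, set against the 37.8% of all tested genes. Of the 16989 tested genes that were alone in their orthogroup, 15.9% were called higher and 16.4% lower. Genes in orthogroups of 2 were called higher in 28.7% and lower in 21.0% of 2818 cases, and genes in orthogroups of 3 to 5 in 41.1% and 30.0% of 1096. In orthogroups of over 5 genes, 42.4% of 519 tested genes were called higher and 40.3% lower. A gene of low count passes the filter only where it is high in a group, so these shares depend on the filter. With at least 10 counts in every library, 55.6% of the tested genes in orthogroups of over 5 genes were called, against 21.8% in orthogroups of 1, and without any filter 43.8% and 30.9% were called. With DESeq2, which was run on all genes with a count, it was 36.3% and 26.1%. Any gene to which DESeq2 gave no adjusted p is counted as not called in these shares.

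The abundant members of large orthogroups leaned towards *R. islandica*. Among genes with a mean over 3 log2 CPM, 59.0% of 105 genes in orthogroups of over 5 were called higher and 20.0% lower, with a median log2 fold change of 2.48. In orthogroups of 3 to 5, 43.4% of 385 such genes were called higher and 13.8% lower, whereas 10.4% and 11.1% of 10412 abundant genes without a relative were called. The share of all counts that fell on genes without a relative was 77.5% to 78.4% in the *R. islandica* libraries and 82.1% to 82.9% in the *R. stylosa* libraries. This share did not overlap between the species (two-sided exact permutation test, n = 6 each, p = 0.00216, the smallest that 6 against 6 libraries can give, adjusted p = 0.00505 over 7 measures). Reads that match several transcripts, of relatives or of isoforms of the same gene, are divided by kallisto. Genes with a transcript value that was not whole were called higher in 26.9% and lower in 19.1% of 4728 cases. Of 16694 genes with whole values only, 17.4% were called higher and 18.0% lower. The part of this division in the lean was not tested.

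The tables mark each orthogroup as universal or not, a mark taken here as given. Genes outside the universal orthogroups were called higher in *R. islandica* in 45.3% and lower in 33.6% of 2232 cases, against 16.5% and 16.5% of 19190 genes in universal orthogroups. Of such genes, 2232 of 9152 passed the filter on low counts, against 19190 of 21494 in universal orthogroups. Among genes alone in their orthogroup, 75.6% of those outside and 28.1% of those inside the universal orthogroups were called. Among genes over 3 log2 CPM, it was 66.7% of 288 and 23.5% of 12074. With at least 10 counts in every library, 39.3% and 23.2% were called, without a filter 42.6% and 32.4%, and with DESeq2 35.0% and 27.9%, so that the excess was smaller under these settings. The DESeq2 shares again count genes without an adjusted p as not called. Genes outside the universal orthogroups took 1.75% to 2.07% of the counts in *R. islandica* libraries and 1.18% to 1.52% in *R. stylosa* libraries (two-sided exact permutation test, n = 6 each, p = 0.00216, adjusted p = 0.00505).

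By coding length, genes with under 500 coding bases were called higher in 30.3% and lower in 19.3% of 3315 cases, and those with 2000 bases and over in 17.7% and 12.5% of 3469. The lean of short genes towards *R. islandica* was not seen among abundant genes without a relative, where 14.3% of the 1053 short genes were called higher and 14.2% lower. Of the genes with a mean over 6 log2 CPM, 18.7% were called, 11.4% higher and 7.34% lower. Of the tested genes under 0 log2 CPM 67.7% were called, but genes this rare pass the filter mainly where they are higher in 1 group, and no difference between rare and abundant genes is read from this share. Genes with over 1 annotated isoform were called in 32.6% of 1553 cases, against 38.2% of 19869 genes with 1 isoform.

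**Figure D3:**
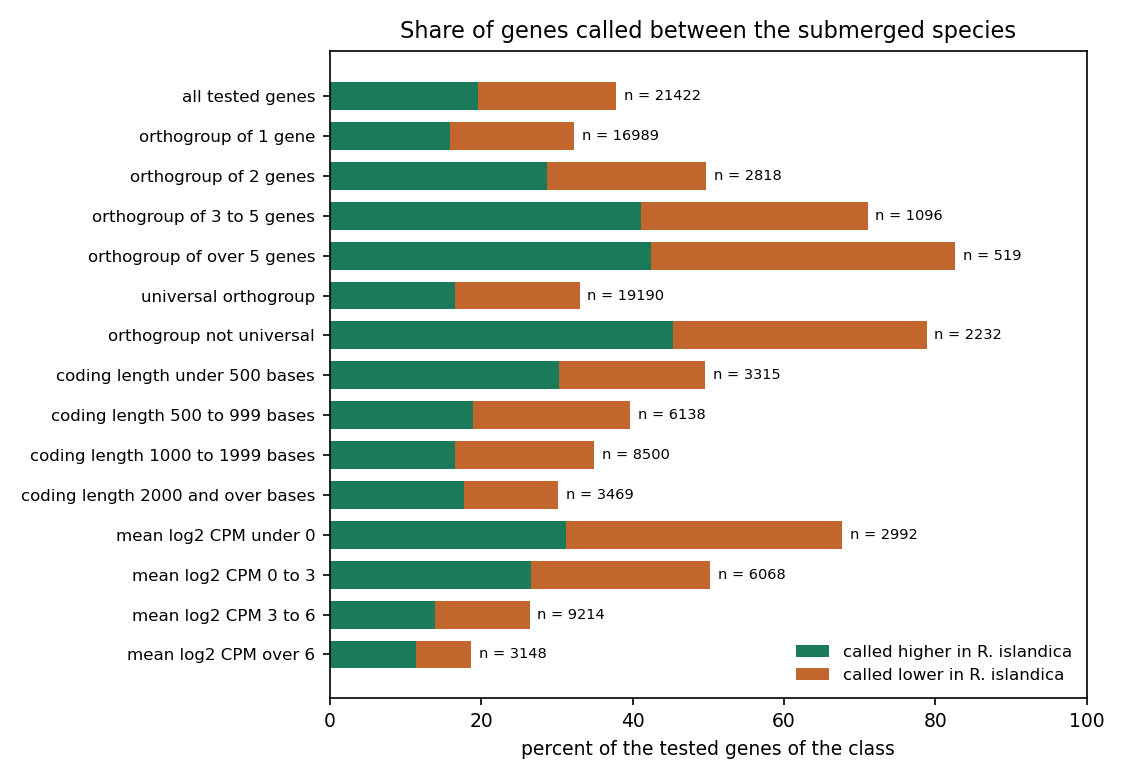
Percent of tested genes called higher (green) and lower (orange) in R. islandica under water, by orthogroup size, universal mark, coding length and mean level; n is the number of tested genes of the class. The called share is 37.8% over all tested genes and 82.7% in orthogroups of over 5 genes, and it is 18.7% in genes over 6 log2 CPM. These shares depend on the filter on low counts, and no difference between rare and abundant genes is read from them.

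Called genes of either direction occurred on all larger scaffolds, in uneven shares and partly in runs. On the 63 scaffolds (the first part of the identifier) with at least 50 tested genes, between 14.0% and 60.2% of the genes were called, with a median of 37.4%. Of 16307 pairs of tested genes with consecutive identifiers, 882 were both higher, 675 both lower and 984 opposed. After a gene called higher the next was also higher in 29.1% of cases, where 19.5% of all genes were, and after a gene called lower the next was lower in 23.1%, where 18.3% were. The shares were 51.8% and 46.1% in neighbours of the same orthogroup, and 27.7% and 21.9% in pairs of different orthogroups. The longest unbroken runs held 9 consecutive genes higher in *R. islandica* and 5 consecutive genes lower. Of the 9 genes, 5 had no count in *R. stylosa*, where absent RNA and unmatched reads cannot be told apart. In the lower runs of 5 genes, 1 to 3 had no count in *R. islandica*.

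Where an orthogroup had several genes, their sum did not always carry the call of a single member. With counts summed per orthogroup, 3402 of 19333 orthogroups were higher and 3184 lower in *R. islandica* (34.1%). Of the 1479 genes called higher in orthogroups of several genes, the orthogroup as a whole was higher for 1041, not called for 404 and lower for 34. Of the 1131 genes called lower, it was lower for 654, not called for 356 and higher for 121. In 1140 orthogroups with exactly 2 genes, both tested, both were higher in 124, both lower in 81, and the 2 genes were opposed in 96. In the opposed orthogroups the sum was higher in 39, lower in 12 and not called in 45. In 50 of these 96 at least 1 of the genes had values that were not whole, as had 704 of all 1140. Such values can also come from reads divided between isoforms of the same gene. A division of reads between relatives that differs between the species was not tested.

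The opposed orthogroup with the largest smaller difference, among those with whole values and counts in all 12 libraries, held genes of 972 and 978 coding bases. The first stood at 35.1, 72.2 and 56.7 CPM in *R. islandica* at 48 h, against 1.102, 1.124 and 1.101 CPM in *R. stylosa*, and at 16.7, 23.2 and 27.6 CPM at 24 h, against 1.558, 1.104 and 1.546 CPM. The second stood at 0.0375, 0.0879 and 0.130 CPM in *R. islandica* at 48 h, against 6.03, 6.87 and 0.755 CPM in *R. stylosa*, and at 0.170, 0.0484 and 0.117 CPM at 24 h, against 5.15, 13.2 and 8.21 CPM. Neither gene overlapped between the species, although 1 *R. stylosa* library at 48 h stood apart with 0.755 CPM of the second gene. The first gene was the higher of the pair in all 6 *R. islandica* libraries, and the second in 5 of the 6 *R. stylosa* libraries. The log2 fold changes were 4.83 (SE 0.30, edgeR adjusted p = 2.32e-08) and -6.01 (SE 0.59, edgeR adjusted p = 1.77e-06), and that of their sum was 2.19.

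A further set of genes had counts in 1 species only. Of 26968 genes with a count under water, 2914 had counts in *R. islandica* and none in the 6 *R. stylosa* libraries, 1757 had counts in *R. stylosa* and none in the 6 *R. islandica* libraries, and 22297 had counts in both. Most were rare, as 635 and 249 of them reached a mean of 1 CPM, 156 and 33 reached 10 CPM, and 5 and 2 reached 100 CPM. Of the 635 genes of *R. islandica*, 57.2% were outside the universal orthogroups, where 5.80% of all genes at this level in *R. islandica* were, and their median coding length was 516 bases, where it was 1143. Of the 249 genes of *R. stylosa*, 49.0% were outside the universal orthogroups, where 4.55% of all genes at this level in *R. stylosa* were, and their median coding length was 915 bases, where it was 1152. A count of 0 says that no read was assigned or that a small estimated count was rounded to 0. For *R. stylosa* a transcript that differs too much from that of *R. islandica* would also be at 0.

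Most of these absences were also seen in air. Of the 635 genes of *R. islandica*, 584 were also without counts in *R. stylosa* in air, and of the 249 genes of *R. stylosa*, 149 were also without counts in *R. islandica* in air. The most abundant gene counted in *R. islandica* only has 657 coding bases and 3 genes in its orthogroup, and had 5653 to 10431 counts in each of its 6 libraries, 48597 in all. It was at least 13269-fold higher than in *R. stylosa*, taking a floor of 3 counts over the 6 libraries at 0, which covers counting error only. In air it had 358 counts in *R. islandica* and none in *R. stylosa*, so that it was also absent from *R. stylosa* there while its count in *R. islandica* was far lower than under water. The most abundant gene counted in *R. stylosa* only has 399 coding bases and had 3642 to 15075 counts in each library, 48747 in all, and was at least 19836-fold lower in *R. islandica* by the same floor. It had 153977 counts in *R. stylosa* in air and none in *R. islandica* in air, so its absence in *R. islandica* did not depend on water.

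More genes of the *R. islandica* reference were detected in *R. islandica*. Reads of *R. stylosa* that match no *R. islandica* transcript are not counted, which thinning does not change. The number of genes with a count was 22279 to 23479 per library in *R. islandica* (median 22714) and 21831 to 22468 in *R. stylosa* (median 22062.5). After thinning all libraries to the smallest total, it was 22149 to 22960 in *R. islandica* and 21831 to 22127 in *R. stylosa*, without overlap (two-sided exact permutation test, n = 6 each, p = 0.00216, adjusted p = 0.00505). The 100 most abundant genes of a library took 24.0% ± 1.32 of the counts of *R. islandica*, against 25.2% ± 1.23 for *R. stylosa* (SD, n = 6 each), a difference that did not pass the test (two-sided exact permutation test, p = 0.147, adjusted p = 0.147).

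Most genes called at the later harvest were also called at the earlier one. At 48 h 3980 genes were higher and 3640 lower in *R. islandica* (18.6% and 17.0% of those tested, or 35.6% together), and at 24 h 4023 were higher and 3715 lower (18.8% and 17.3%, or 36.1%). Of these, 6725 were called in the same direction at both harvests, which is 88.3% of those at 48 h and 86.9% of those at 24 h, and 1 gene was called in opposite directions. Across genes the 48 h and 24 h differences had a Pearson r of 0.975, a description of values that share a reference transcriptome.

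For no gene did the difference at 48 h depart from that at 24 h in a test against a log2 threshold of 1 (edgeR, 0 of 21422 genes; 398 at an unadjusted p under 0.05). DESeq2 called 1 gene by the same threshold. Against no change, the difference at 48 h minus that at 24 h was positive for 85 genes and negative for 136 (edgeR, 1.03% of those tested, 0.397% and 0.635% by direction). Of these 221 genes, the estimated difference widened in favour of *R. islandica* for 32 and in favour of *R. stylosa* for 37, narrowed for 59 higher and 34 lower ones, and turned its sign to higher for 19 and to lower for 40. These classes go by the estimates, with no call required at either harvest. The main comparison called 90 of the 221 genes, and 1 gene of all those tested was called in opposite directions at the harvests. For Roisl.0016s0066, whose *R. islandica* values at 48 h all lay below those at 24 h, the log2 difference was -4.02 (SE 0.29) at 48 h and -2.86 (SE 0.28) at 24 h, and the change of -1.16 (SE 0.37) did not pass the test against no change (edgeR adjusted p = 0.147).

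The counts of changed genes varied when single libraries were left out. A group with fewer libraries also gives a weaker test, and the part of this in the falls was not tested. Without *R. islandica* 24 h replicates 1, 2 and 3, the positive and negative counts were 338 and 354, 5 and 20, and 9 and 18. Both counts rose only without replicate 1 of this group and fell without any other library. Without *R. islandica* 48 h replicates 1, 2 and 3, they were 30 and 41, 33 and 58, and 13 and 21. Without *R. stylosa* 24 h replicates 1, 2 and 3, they were 38 and 45, 63 and 124, and 35 and 31, and without *R. stylosa* 48 h replicates 1, 2 and 3, they were 32 and 99, 56 and 85, and 24 and 36. Of the 1906 genes called at 1 harvest only, 90 had a change that passed this test, so most of the genes called at 1 harvest alone were not shown to differ between harvests.

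To see which part of the difference belonged to submergence, the difference under water was set against the difference between the same species in air, in a model of all 24 libraries with 22226 tested genes. In this model 4377 genes were higher and 4220 lower in *R. islandica* under water (19.7% and 19.0%, or 38.7% together), and 4148 were higher and 3379 lower in air (18.7% and 15.2%, or 33.9%). The difference under water exceeded that in air for 899 genes and lay below it for 1421 (edgeR against a log2 threshold of 1, 10.4% of those tested, 4.04% and 6.39% by direction). These differences keep their sign (*R. islandica* minus *R. stylosa*), so a value below that in air is not always a smaller gap. Against no change the counts were 5298 and 5573 (23.8% and 25.1%, or 48.9%). Across genes, the differences under water and in air had a Pearson r of 0.907 and a Spearman rho of 0.783, a description of values that share the reference transcriptome and the normalization.

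Most genes of either direction under water were called in the same direction in air. Of the 4377 genes higher under water, 3239 were also higher in air (74.0% of those under water and 78.1% of those in air), 43 were lower in air and 1095 were not called in air. Of the 4220 genes lower under water, 2568 were also lower in air (60.9% of those under water and 76.0% of those in air), 60 were higher in air and 1592 were not called in air. Of the genes not called in air, the difference between water and air itself passed the test for 310 of the higher and 610 of the lower ones. In the other direction, 306 genes higher and 256 genes lower in air were not called under water and passed the test of the difference. Of the genes called in the same direction in both, the gap was larger under water for 102 higher and 213 lower ones. It was smaller under water for 90 higher and 66 lower ones.

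The response of each species to water was then read for these genes. Of all 22226 tested genes, 12.2% rose and 13.2% fell under water in *R. islandica* (25.4% together), against 9.97% and 7.89% in *R. stylosa* (17.9% together), and the genes counted here were chosen by the difference between these responses, so nothing is read from which species responded. Of the 310 genes that were higher in *R. islandica* under water but not called in air, 181 rose under water in *R. islandica*, 90 fell under water in *R. stylosa*, 7 did both and are counted in either number, and 46 did neither by the threshold. Of the 610 genes that were lower under water but not called in air, 435 fell under water in *R. islandica*, 136 rose in *R. stylosa*, 15 did both and 54 did neither.

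**Figure D4:**
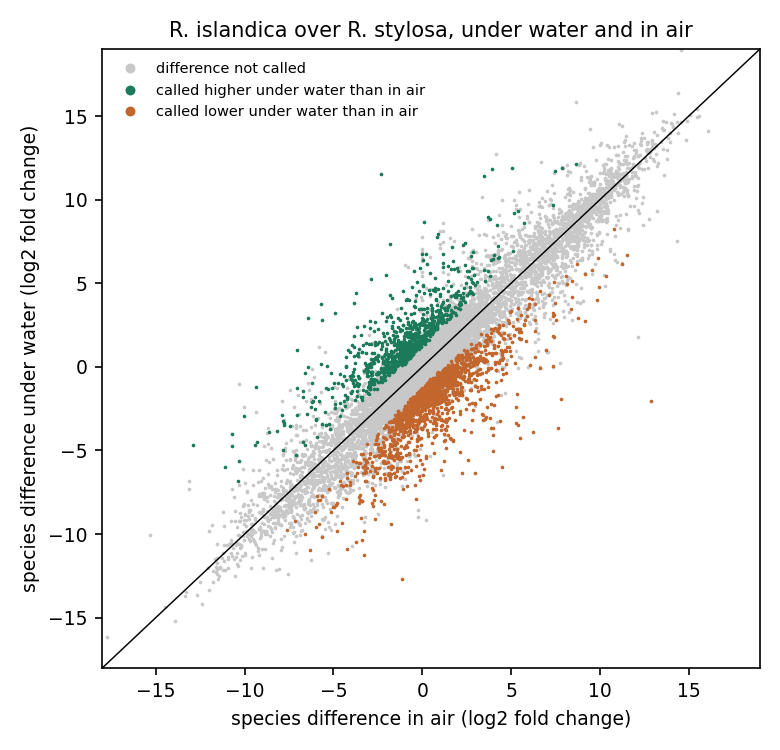
Log2 fold change of R. islandica over R. stylosa under water (vertical axis) against the same in air (horizontal axis) for 22226 genes; the line marks equal differences. Green points are the 899 genes whose signed difference under water exceeds that in air, orange points the 1421 genes below it, and grey points the genes without a called difference between water and air. A point below the line is not always a smaller gap between the species.

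The named genes covered both kinds. For Roisl.0006s0196 the log2 difference in the model of 24 libraries was 12.01 (SE 0.20) under water and 13.24 (SE 0.21) in air, and for Roisl.0011s0234 it was -8.69 (SE 0.18) under water and -8.46 (SE 0.18) in air, and neither gap passed the test (edgeR adjusted p = 0.736 and 1). CPM in the following sentences are on the scale of the 24 libraries, which is slightly lower than that of the 12. Roisl.0037s0019 stood at 3107 to 3979 CPM in submerged *R. islandica* and 405 to 519 CPM in submerged *R. stylosa*, and in air at 2746 to 3431 CPM in *R. islandica* and 1657 to 1903 CPM in *R. stylosa*. The *R. stylosa* libraries were thus lower under water than in air, without overlap, and the gap between water and air was 2.18 (SE 0.10, edgeR adjusted p = 4.15e-09).

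Roisl.0016s0066 showed the other kind of change. It stood at 273 to 1104 CPM in submerged *R. islandica* and 4404 to 7296 CPM in submerged *R. stylosa*, and in air at 5699 to 7444 CPM in *R. islandica* and 8182 to 11511 CPM in *R. stylosa*. All *R. islandica* libraries were lower under water than in air, and the *R. stylosa* libraries were lower as well, by less. The log2 difference was -3.46 (SE 0.18) under water and -0.64 (SE 0.16, not called) in air, and the gap was -2.81 (SE 0.23, edgeR adjusted p = 7.08e-07).

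In 43 and 60 genes the direction itself differed between water and air. Among 22 of the 43 with counts in all 24 libraries and no second gene in the orthogroup, the largest gap was that of a gene of 582 coding bases. It stood at 344, 287 and 247 CPM in submerged *R. islandica* at 48 h, against 15.9, 9.34 and 24.7 CPM in submerged *R. stylosa*, and at 257, 221 and 160 CPM at 24 h, against 17.0, 28.7 and 15.6 CPM. In air it stood at 0.109 to 1.01 CPM in *R. islandica* and 16.0 to 39.5 CPM in *R. stylosa*. The *R. stylosa* libraries of water and air overlapped, while the gene was nearly silent in *R. islandica* in air and abundant under water. The log2 difference was 3.75 (SE 0.26) under water and -5.69 (SE 0.34) in air, a gap of 9.44 (SE 0.43, edgeR adjusted p = 9.72e-12).

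Among 28 of the 60 genes lower under water and higher in air, by the same rule, the largest gap was that of a gene of 1005 coding bases, which is not Roisl.0016s0066. It stood at 0.173, 0.0813 and 0.240 CPM in submerged *R. islandica* at 48 h, against 1.54, 1.52 and 1.96 CPM in submerged *R. stylosa*, and at 0.182, 0.0673 and 0.0268 CPM at 24 h, against 0.746, 0.803 and 0.709 CPM. In air it stood at 1.13 to 3.26 CPM in *R. islandica* and 0.0848 to 0.312 CPM in *R. stylosa*. The gene was rare in all libraries and moved in opposite directions in the species, with a log2 difference of -3.15 (SE 0.35) under water and 3.41 (SE 0.32) in air and a gap of -6.56 (SE 0.48, edgeR adjusted p = 8.26e-09).

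**Figure D5:**
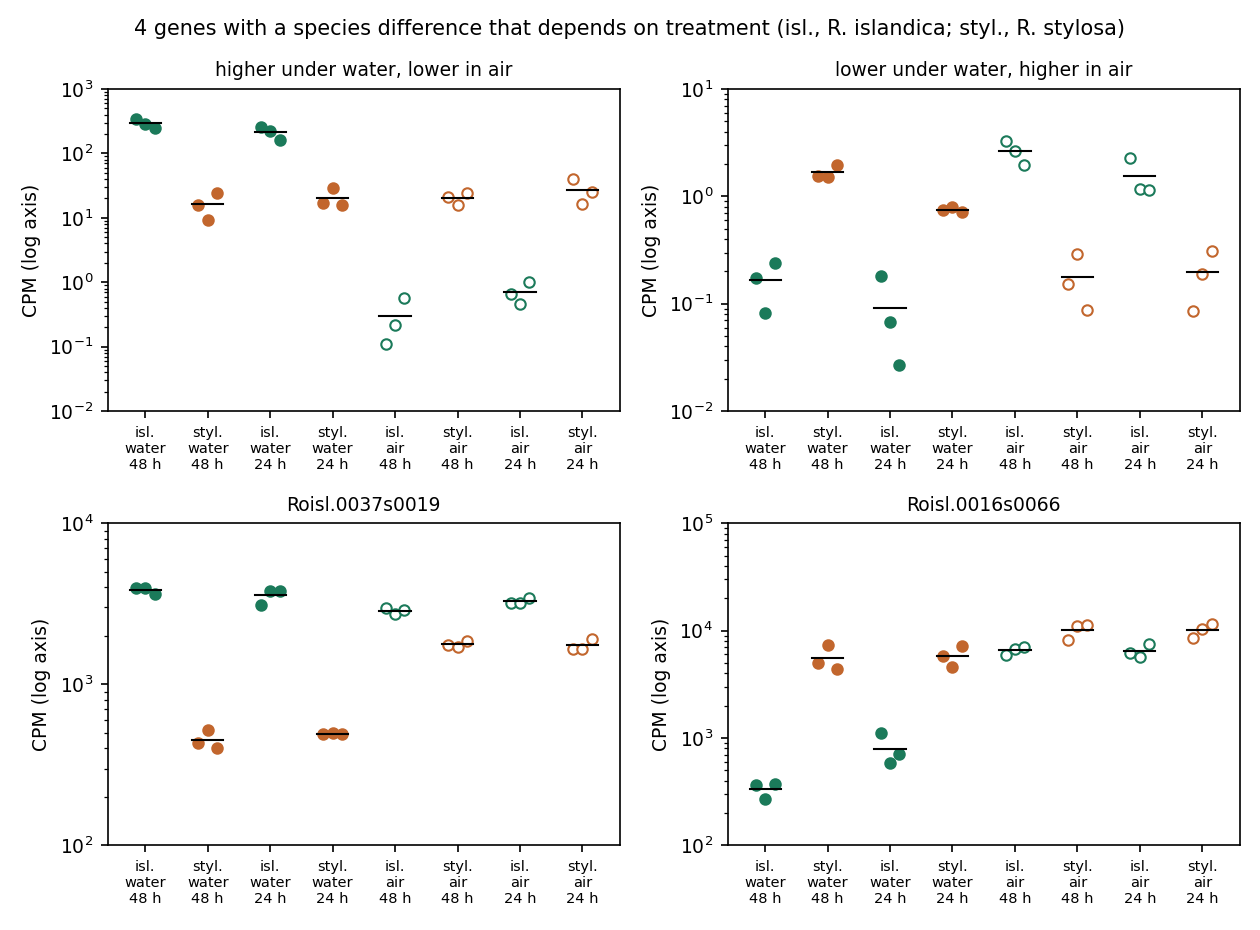
CPM (log axis) of 4 genes in all 24 libraries, under water (filled) and in air (open) at 48 h and 24 h, with R. islandica in green and R. stylosa in orange; each point is a library and each line the mean of 3. In the 2 upper genes the order of the species turns between water and air, with log2 gaps of 9.44 and -6.56, and in the 2 lower genes the order holds but its size changes, with gaps of 2.18 and -2.81.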

How the data were processed

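Young leaves of 12 submerged and 12 air-grown sets of plants were sequenced as polyadenylated RNA in paired ends. The authors checked the reads with FastQC 0.12.0, matched them, for either species, to the *R. islandica* transcriptome (assembly v1, annotation v1.1) with kallisto and deposited the expected counts (estimated counts) per transcript, not normalized, beside orthogroup and coding length. Every length was a multiple of 3. In the submerged libraries 11.6% of the values were not whole within 0.001. Column names carry a Roman numeral, taken as the replicate, and a 1 or 2, taken as the 24 h or 48 h harvest, an inference on which the sign of the change between harvests depends and the species difference does not.

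The counts of 32703 transcripts were summed over isoforms to 30646 genes and rounded. edgeR 4.0.16 in R 4.3.3 was used with filterByExpr, TMM normalization, estimateDisp, glmQLFit and glmTreat at a log2 fold change of 1, and with glmQLFTest against no change, each at a Benjamini-Hochberg adjusted p below 0.05. The common biological coefficient of variation was 0.162. The main model held species and harvest, a model of the 4 submerged groups gave the harvests, and a model of the 8 groups gave water against air. Principal components used DESeq2's variance stabilizing transformation. Single values were compared by two-sided exact permutation tests. No 2 replicates held the same library, as chi-square per degree of freedom was 11.4 to 53.6 over 12 pairs. The scripts were tested on simulated data.

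Genes were named by rule: among called genes, called at both harvests, counted in all 12 libraries and alone in their orthogroup, the one with the largest difference and the one with the highest mean CPM in each direction. Other single genes are given without identifier and were chosen after their values were seen, by the rules stated beside them. The comparison, groups and rules were chosen with earlier results of these data known. The alternatives were DESeq2 1.42.0, DESeq2's size factors, no filter, the threshold applied after the test against no change, the replicate block, thinned libraries, other models and normalization genes, whole values only, orthogroup sums and each library left out. The minimum of 10 counts in every library, the grouping by universal orthogroup and the fits of 1 harvest alone were chosen after seeing the data.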

Additional observations from a re-analysis of the deposited data

Results flagged for a closer look

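In the test of the difference itself, the species difference at 48 h minus that at 24 h was positive for 85 genes and negative for 136 genes (edgeR against no change). With single libraries left out, these counts ranged from 5 to 338 and from 18 to 354. With its sign kept, the species difference under water exceeded that in air for 899 genes and lay below it for 1421 genes (edgeR, log2 threshold of 1). The gene of 582 coding bases that was higher in *R. islandica* under water and lower in air had a log2 gap of 9.44, and the gene of 1005 coding bases that was lower under water and higher in air had a gap of -6.56. For Roisl.0037s0019 the gap between water and air was 2.18, and for Roisl.0016s0066 it was -2.81. With 3 libraries per group, no group was large enough to be searched for single outlying libraries. Replicate 1 of *R. islandica* at 24 h had a chi-square per degree of freedom of 53.6 and 45.6 against its replicates, which had 13.8 between them. In the other groups it was 11.4 to 34.5.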

How the results depend on the processing

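The 4182 higher and 3917 lower genes under water stayed within 1.5 times under every alternative except the minimum of 10 counts in each library (1873 and 2017), which tests fewer genes. Leaving out a library gave 4149 to 4291 and 3879 to 4058, and DESeq2 kept 7266 of the 8099 calls in the same direction and reversed 0. The 4 named genes kept direction and call under every alternative that tested them. They were picked from the called genes by their size or level, so this is a description only. The called share of genes in orthogroups of over 5 genes was 43.8% without the filter, and that of genes outside universal orthogroups 42.6% without the filter and 39.3% with at least 10 counts, settings that test other genes. With DESeq2, which changes both the tool and the genes tested, the shares were 36.3% and 35.0%, genes without an adjusted p being counted as not called. Genes counted in 1 species only numbered 635 and 249 at a mean of 1 CPM, and 156 and 33 at 10 CPM. With the threshold applied after the test against no change, 131 genes changed between harvests. The signed difference under water then exceeded that in air for 1815 genes and lay below it for 2697. Against no change between harvests, DESeq2 gave 441 positive and 552 negative genes, and leaving out a library gave 5 to 338 and 18 to 354. Of 18 same-numbered pairs of libraries, 5 correlated above 0.1 (range -0.050 to 0.324). Pairs with different numbers were not compared, so whether the replicate numbers pair the libraries was not settled. With the replicate block, 180 positive and 297 negative genes changed between harvests against no change, and 1 gene at the threshold, as with DESeq2 (1 gene). The causes of these shifts between tools were not tested. A count of 0 is limited by depth, and in *R. stylosa* it cannot be told apart from unmatched reads.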
